A study of Mus musculus with 30 samples.

Results

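The transcripts described here are the RNAs encoded by the mitochondrial genome, taken as every gene whose symbol starts with mt- in the gene annotation of mouse build NCBIM37. The annotation holds 37 such genes, and 27 of them had a row among the 21412 genes of the table of normalized counts. These were all 13 messenger RNAs (mRNAs), both ribosomal RNAs (rRNAs) and 12 of 22 transfer RNAs (tRNAs). The hippocampus of male BALB/c mice, an inbred albino strain, was sequenced in 6 groups of 5 mice that crossed methylmercury (MeHg, an organic mercury compound that enters the brain) with selenium. Ctr mice received neither, LD mice a low and HD mice a high dose of MeHg, and Se_Ctr, Se_LD and Se_HD mice carry the same mercury names together with selenium, named in the study's title as selenium-methionine. For the 3 groups without selenium the feed held 0, 0.28 or 5 mg MeHg per kg for 11 weeks, in mice 2 to 3 weeks old on arrival. The MeHg was given with cysteine, and cysteine was also added to the Ctr feed. The selenium dose, and the mercury doses, duration and age of the selenium groups, are not given in the sources used here. Each library came from 1 RNA sample, and p-values measure the spread between these mice.

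The mitochondrial genome is a small closed circle of DNA that is transcribed from both strands into long precursor RNAs by its own polymerase, Polrmt, with the packaging and activating factor Tfam. Most mRNAs are flanked by tRNAs, and excision of the tRNAs frees the mRNAs and rRNAs, which then receive short poly(A) tails. All the mRNAs encode core subunits of respiratory complexes I, III and IV or of ATP synthase (complex V), the machinery that supplies most of the ATP that neurons use. All but mt-Nd6 are read from the heavy strand, as are both rRNAs. The genome of build NCBIM37 places all 37 genes on 16299 bases, so neighbours abut or overlap, and this shapes which reads can be counted for 1 gene only.

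The sequences that follow are shown because the results turn on these stretches, and each is written 5′ to 3′ on the strand of its gene, from the NCBIM37 genome. The tRNA genes mt-Tm (methionine; chrM:3845-3913, plus strand), mt-Tc (cysteine; chrM:5192-5257, minus strand) and mt-Tn (asparagine; chrM:5089-5159, minus strand) are the only member that limma called in a comparison, the tRNA with the highest count and its neighbour.
mt-Tm: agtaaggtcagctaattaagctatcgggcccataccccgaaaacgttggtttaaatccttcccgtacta
mt-Tc: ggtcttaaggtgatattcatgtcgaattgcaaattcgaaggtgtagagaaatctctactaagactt
mt-Tn: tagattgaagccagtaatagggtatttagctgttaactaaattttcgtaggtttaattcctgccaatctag
Between mt-Tc and mt-Tn lie 32 bases (chrM:5160-5191, minus strand) known as the origin of light-strand replication, in which the capitals mark the 8-base arms of an inverted repeat with 13 bases between them.
Gap between mt-Tc and mt-Tn: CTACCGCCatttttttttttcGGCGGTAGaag
The next 3 stretches hold overlaps of mRNA genes, in capitals, with 20 bases on each side: mt-Atp8 and mt-Atp6 (chrM:7907-7989, plus strand), mt-Nd4l and mt-Nd4 (chrM:10147-10193, plus strand), and mt-Nd5 with mt-Nd6 on the opposite strand (chrM:13532-13585, written on the plus strand).
mt-Atp8 and mt-Atp6, 43-base overlap: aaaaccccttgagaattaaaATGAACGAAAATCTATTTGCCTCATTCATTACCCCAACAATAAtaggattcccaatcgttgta
mt-Nd4l and mt-Nd4, 7-base overlap: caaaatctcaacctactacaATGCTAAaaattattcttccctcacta
mt-Nd5 and mt-Nd6, 14-base overlap: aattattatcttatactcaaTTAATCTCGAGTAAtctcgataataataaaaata
The first of these overlaps opens with the ATG start codon of mt-Atp6 and the next with that of mt-Nd4, so in both pairs the downstream reading frame begins inside the upstream gene.

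Between 5768208 and 11510521 reads per library were counted on genes (median 9351470.5), and on average 11.9% ± 1.49 (SD, n = 30) of them lay on the mitochondrial genes. The share ran from 9.74% to 15.7% of the reads of a library. Of the 10 genes with the highest mean counts, 9 were mitochondrial, as were 11 of the highest 20. The tissue label was checked on markers, and the 10 listed genes of hippocampal neurons all had rows, with Prox1, a transcription factor of dentate granule cells, at 459 to 1341 and Neurod6, of pyramidal neurons, at 1166 to 2637 normalized counts. Ctr replicate 2, the library with the fewest reads, stood apart before any comparison. The rRNAs took 7.64% of its reads against 1.26% to 2.84% in the other 29 libraries, and small non-coding RNAs annotated as misc_RNA took 0.392%. HD replicate 1 and LD replicate 2 came next, with 0.121% and 0.105% of misc_RNA against at most 0.0573% in the other 27 libraries, and with 2.84% and 2.62% of rRNA. Fold changes and shares that rest on these mice are given with and without them.

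The mRNAs of complex IV stood at the top of the order by length. For this order levels are compared between genes as normalized counts per kb of gene, averaged over the 30 libraries. mt-Co1 (ENSMUSG00000064351, chrM:5328-6872), the catalytic subunit of cytochrome c oxidase, had 142501 per kb, followed by its partners mt-Co3 with 131203 and mt-Co2 with 123272. mt-Co1 lay above mt-Co3 in 22 of 30 libraries and mt-Co3 above mt-Co2 in 25, so the order within the complex did not hold in every mouse. The complex I subunit mt-Nd1 (87499 per kb) lay below mt-Co2 and above mt-Cytb in all 30. mt-Cytb, the only mitochondrially encoded subunit of complex III, had 78818 per kb.

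The remaining complex I mRNAs covered a wide range. mt-Nd4 had 62370 per kb, mt-Nd2 56409, mt-Nd3 49259 and mt-Nd5 37914. mt-Nd6 (ENSMUSG00000064368, chrM:13552-14070), the light-strand mRNA, reached 50614 per kb and lay above mt-Nd3 in 16 of 30 libraries, so these neighbours in the order were not separated. mt-Nd6 was 0.929 to 1.95 times mt-Nd5 per kb (median 1.28), the gene whose end it overlaps from the opposite strand.

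mt-Atp6, mt-Atp8 and mt-Nd4l were the 3 lowest mRNAs per kb. mt-Atp6, the proton channel subunit of ATP synthase, had 20006 per kb, mt-Atp8 had 1054 and mt-Nd4l had 23.3. In absolute terms mt-Nd4l averaged only 6.91 normalized counts, while mt-Nd4, which shares a precursor with it, averaged 85945. mt-Atp8 was 0.0315 to 0.107 times mt-Atp6 per kb. All 3 genes lie in overlaps: a 75-base read, the length sequenced, has 88 positions that touch mt-Atp8 and no other mitochondrial gene, against 563 for mt-Atp6. For mt-Nd4l there are 217.

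The same 3 genes lie opposite annotated genes in a nuclear copy of the mitochondrial genome. This copy, on chr1:24618374-24623027 of NCBIM37, matches chrM positions 6390 to 11042 at 99.9% identity over 4654 bases with 2 mismatches. The annotated gene Gm10222 within it covers 296 bases of mt-Nd4l and averaged 54.5 normalized counts, more than mt-Nd4l itself. Gm10925 covers 180 bases of mt-Atp8 and 677 of mt-Atp6 and averaged 108. The same copy also holds mt-Co2, mt-Co3 and mt-Nd3 whole, the end of mt-Co1 and part of mt-Nd4, with no annotated gene opposite the first 4 of these. All of mt-Co1 also lies in a copy on chr2 at 97.4% identity. Over all the nuclear copies found, which matched at 95% identity or more, 65.8% of the bases of mt-Nd4, 52.4% of mt-Nd5, 49.2% of mt-Nd2 and 23.6% of mt-Rnr2 are held, and all bases of the tRNAs mt-Tc, mt-Tn, mt-Ty and mt-Ta. The levels of all these genes, their ratios and their places in the order by length are therefore uncertain, since reads of these stretches could be divided between the copies or left out. How the authors' counting treated reads that match several places or genes is not given in the sources used here.

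Over all libraries both rRNAs varied widely, and this rested on Ctr replicate 2. mt-Rnr2 (16S, chrM:1094-2675) had 77179 and mt-Rnr1 (12S, chrM:70-1024) 71258 normalized counts per kb, with coefficients of variation (CV) of 59.2% and 59.1% over all libraries against 10.9% for mt-Co3, 13.8% for mt-Co1 and 34.2% for mt-Nd6. Without Ctr replicate 2 the CVs were 22.3% for mt-Rnr2 and 23.4% for mt-Rnr1, below the 34.4% of mt-Nd6, and the levels 69319 and 64060 per kb. The ratio of mt-Rnr2 to mt-Rnr1 per kb nevertheless stayed between 0.987 and 1.24, so the 2 rRNAs varied together. Against mt-Nd1, the mRNA next downstream after a tRNA, mt-Rnr2 ranged from 0.585 to 3.71 times per kb (median 0.770), where the highest value is Ctr replicate 2 and the other 29 libraries end at 0.992.

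The presence of a row differed by strand among the tRNAs. All 8 tRNA genes of the minus strand had a row, but only 4 of the 14 on the plus strand (mt-Tl1, mt-Tm, mt-Td and mt-Tg). mt-Tc averaged 1750 normalized counts, or 26514 per kb, far above mt-Tp with 188, mt-Tn with 68.0 and mt-Ty with 21.0. The other 8 tRNAs with a row averaged from 0.469 to 7.79. Per kb, mt-Tc was 6.02 to 70.7 times mt-Tn, which lies across the replication origin, and 13.6 to 1174 times mt-Ty, which lies 2 bases away on its other side. The 1174 is HD replicate 1, and the highest ratio outside the HD group was 341. If strand is ignored, mt-Tp, mt-Tn and mt-Tc have 67, 31 and 26 positions for a 75-base read that touch no other mitochondrial gene, mt-Tl1 has 1, and the other 8 tRNAs with a row have 0. If only genes of the same strand count as neighbours, 7 of these 8 have 65 (mt-Tm) to 145 (mt-Tq) positions and mt-Tg still has 0. By the first measure the tRNAs with a row and more than 1 position, mt-Tp, mt-Tn and mt-Tc, also had the highest tRNA counts. Among them mt-Tc has the fewest positions and the highest count. mt-Tf, mt-Tt, mt-Tw and mt-Ti, with 69, 67, 65 and 63 on their own strand, have no row. Which of these measures applies is unknown, since the kit keeps the strand but the strand setting of the counting is not given. The labels name a kit that selects poly(A) RNA while the study's methods name it without that word, and what sets the low counts of these tRNAs was not tested.

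**Figure D1:**
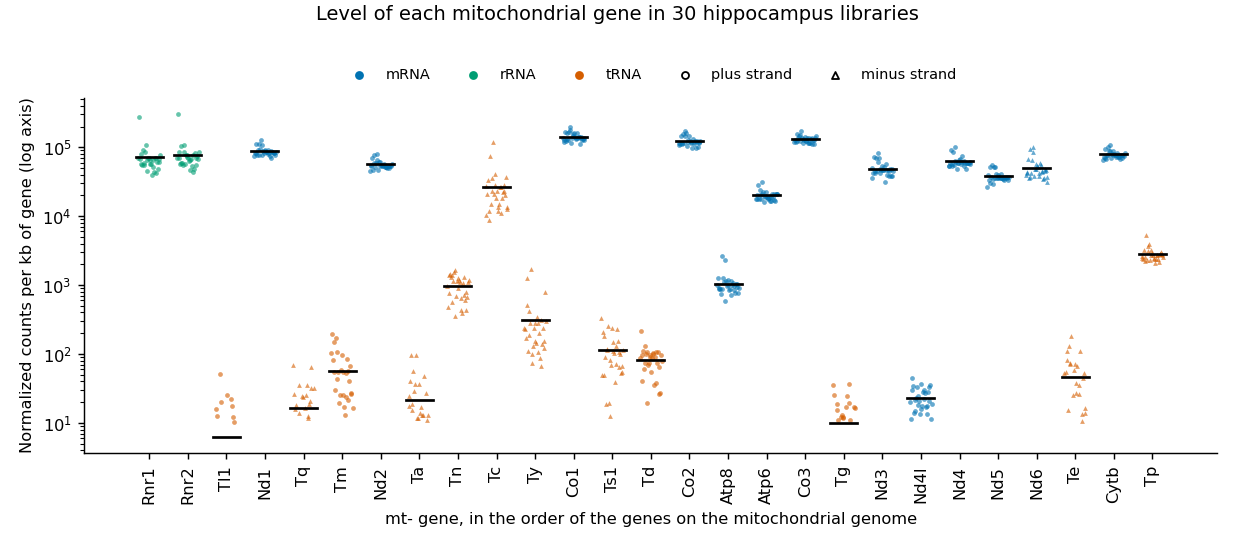
Normalized counts per kb of gene (y axis, log scale) for the 27 mitochondrial genes in map order (x axis), with 1 point per library (30 libraries), circles for the plus and triangles for the minus strand, and a black bar for the mean. Values at 0 cannot be drawn on the log axis; mt-Co1, mt-Co3 and mt-Co2 are highest, mt-Tc stands above every other tRNA, and 1 library (Ctr replicate 2) stands apart in both rRNAs.

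The first question of the design is whether MeHg changes the mitochondrial RNA content of the hippocampus. The mRNA share of the counted reads was 9.23% ± 1.43 in Ctr, 10.8% ± 1.67 in LD and 9.93% ± 0.945 in HD mice (SD, n = 5 each). By mouse, the Ctr shares were 8.66%, 7.97%, 8.99%, 11.7% and 8.83%, the LD shares 9.63%, 11.2%, 9.00%, 10.8% and 13.3%, and the HD shares 10.8%, 8.71%, 9.53%, 9.65% and 11.0%. The groups overlapped, and a single high mouse in Ctr (replicate 4) lay above 4 of the 5 LD and all HD mice. The difference of LD from Ctr was 1.56 percentage points of all counted reads and that of HD from Ctr 0.704, against pooled SDs of 1.55 and 1.21. Without Ctr replicate 2 these differences were 1.25 and 0.389, and with any 1 mouse left out they ran from 0.932 (without LD replicate 5) to 2.18 and from 0.389 to 1.32 (both highest without Ctr replicate 4). For all mitochondrial genes together the differences were 0.423 for LD and -0.275 for HD, and without Ctr replicate 2 they were 1.23 and 0.530, so the sign for HD turned with this mouse. In bulk tissue, more or fewer cells rich in mitochondria and more or less mitochondrial RNA per cell cannot be told apart.

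**Figure D2:**
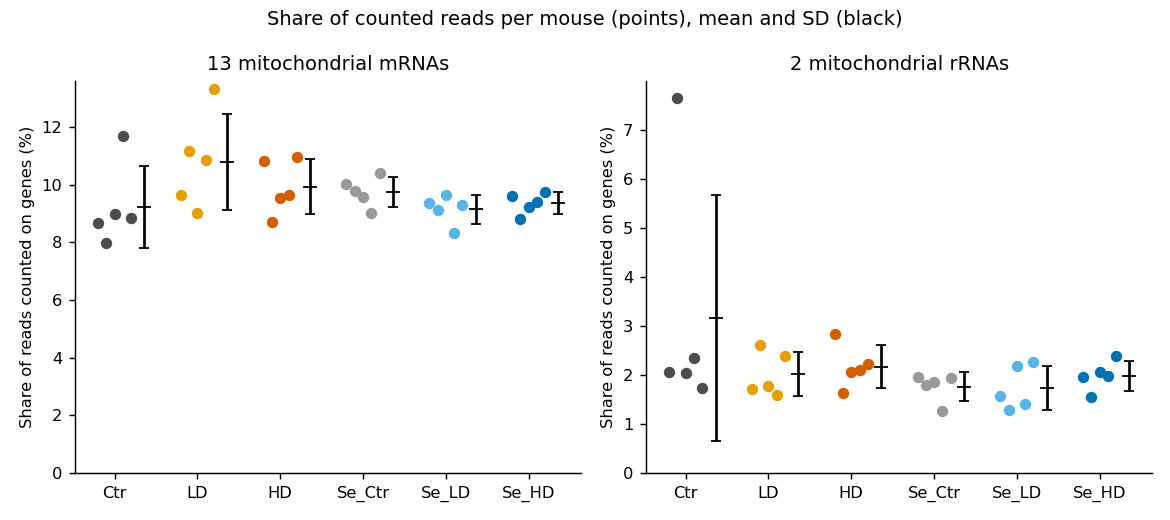
Share of the reads counted on genes (%, y axis) that lay on the 13 mitochondrial mRNAs (left) and the 2 rRNAs (right), by group (x axis), with a point per mouse and the mean and SD of 5 mice in black. The mRNA shares of all groups overlap, and Ctr replicate 2 stands apart at 7.64% for the rRNAs.

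In LD mice compared with Ctr mice, no mitochondrial gene passed the test. A gene is called here when the F test over the groups of the fit and the contrast both have p under 0.05 in limma, unadjusted, on log2(normalized count + 1). Of the 26 mitochondrial genes tested 0 were called, against 1.46% of all genes, and 0 passed the contrast alone, which 3.01% of all genes did. edgeR and DESeq2 also called 0 of them, against 1.37% and 1.03% of all genes. Of the 13 mRNAs 12 had a positive log2 fold change with a median of 0.22, against a median of 0.0048 over all genes tested. These genes are cut from shared precursors and are not independent of each other.

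The mRNA values of LD and Ctr mice overlapped gene by gene. mt-Co1 had 212433, 185647, 198374, 254749 and 190518 normalized counts in the Ctr mice. In the LD mice it had 206678, 249182, 196104, 261697 and 309740. LD replicates 2, 4 and 5 lay among the high values while replicates 1 and 3 lay within the range of the low Ctr mice. The log2 fold change was 0.22 with a 95% interval of -0.31 to 0.76 (limma), and without LD replicate 5 it was 0.13.

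mt-Nd6 had the largest fold change of the mRNAs in LD mice. Its Ctr values were 20489.5, 22049.5, 22439, 35360.1 and 18816 normalized counts and its LD values 19522, 49723, 21656, 34517 and 43821. The same LD mice were high and low as for mt-Co1, and the groups overlapped. Its log2 fold change was 0.45 (-0.11 to 1.01; limma adjusted p = 0.999), and an exact permutation test over the mice gave p = 0.206 (two-sided). With 1 mouse left out the fold change ran from 0.28 (without LD replicate 2) to 0.62 (without LD replicate 1).

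Markers of other cell types are given beside these values. In LD minus Ctr the log2 fold change was positive for 10 of the 10 markers of hippocampal neurons (median 0.09) and for 7 of the 8 of the choroid plexus (median 0.53). It was also positive for 6 of 6 oligodendrocyte markers (median 0.05), and negative for 5 of 5 erythrocyte (median -0.64), 5 of 5 interneuron (median -0.03) and 4 of 5 endothelial markers (median -0.08). The microglia markers had 7 of 10 positive and the astrocyte markers 3 of 6, and limma called none of all these. The neuron markers summed to 96866 to 115647 normalized counts in LD and 92533 to 101324 in Ctr mice, and the choroid plexus markers to 554 to 31027 and 814 to 31136. Their part in the mitochondrial values was not tested.

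High MeHg gave a similar picture for the mRNAs. Of the 26 genes tested 1 was called, mt-Tm, against 5.09% of all genes, so the share among the mitochondrial genes was near the background. It was also the only member to pass the contrast alone, as 8.34% of all genes did. edgeR and DESeq2 called 0 members, against 5.85% and 5.45% of all genes. Of the mRNAs 10 had a positive and 3 a negative log2 fold change (median 0.11). mt-Co1 values in HD mice were 274266, 176939, 210070, 226636 and 243882 normalized counts, and the log2 fold change was 0.11 (-0.42 to 0.65; limma), or 0.041 without HD replicate 1 and 0.20 without HD replicate 2. HD replicate 1 was high and replicate 2 low, and the Ctr range lay inside the HD range. For mt-Nd6 the log2 fold change was 0.31, and its value in HD replicate 1, 52346, was the highest of all 30 libraries. Without this mouse the fold change was 0.094, and without Ctr replicate 4 it was 0.46. The LD and HD comparisons share the same Ctr mice.

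mt-Tc differed most among HD mice themselves. It had 691, 1827, 1377, 2228 and 573 normalized counts in Ctr mice and 7779.6, 1391, 2716, 1902 and 1229.8 in HD mice. HD replicate 1, the library with the second highest share of misc_RNA, exceeded every other library, and the other 4 HD mice lay within or just above the Ctr range. The part of these RNAs in the value was not tested. The log2 fold change was 0.99 (-0.03 to 2.01; limma adjusted p = 0.618; exact permutation p = 0.151) and was not called. Without HD replicate 1 it was 0.56.

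mt-Tm (ENSMUSG00000064344), the methionine tRNA upstream of mt-Nd2, was lower in HD mice, at very low counts. The recovered reads were 6, 8, 6, 9 and 3 in the Ctr mice and 1, 0, 2, 5 and 8 in the HD mice, and the normalized counts were 7.24, 13.6, 5.67, 10.1 and 3.84 against 1.35, 0, 1.74, 4.02 and 6.67. HD replicates 1 to 3 lay below all Ctr mice, and replicates 4 and 5 overlapped with them. On the log2(value + 1) scale the change was -1.49 (-2.56 to -0.42; limma contrast p = 0.00889, adjusted p = 0.346, over the alternatives 0.151 to 0.734), and an exact permutation test over the mice gave p = 0.0397 (two-sided). The size of the change depended on the pseudocount, at -2.32 with 0.1 and -0.50 with 10. The call was lost without Ctr replicate 2 (-1.29), without Ctr replicate 4 (-1.39), and without HD replicate 1 (-1.40), 2 (-1.09) or 3 (-1.46), and edgeR and DESeq2 did not make it. Without Ctr replicate 2 the glutamate tRNA mt-Te was called in its place, with a log2 fold change of -1.30 on counts that average 3.18.

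Markers of other cell types moved with the HD group. The summed level of the 10 microglia markers, all with a row, was 3134 to 7572 normalized counts in HD mice against 2489 to 2757 in Ctr mice. The 6 astrocyte markers summed to 53301 to 87617 in HD and 43972 to 54506 in Ctr mice, and the 5 interneuron markers to 3851 to 4819 and 4950 to 5933. The 8 choroid plexus markers all had a positive log2 fold change (median 1.42) with 0 called, and their sum, 6982 to 29250 in HD and 814 to 31136 in Ctr mice, overlapped. Erythrocyte markers overlapped, at 151 to 637 in HD and 233 to 636 in Ctr mice, as did endothelial markers, at 1475 to 1965 and 1671 to 1933. The 10 markers of hippocampal neurons also overlapped, at 66735 to 106832 in HD and 92533 to 101324 in Ctr mice, as did the 6 of oligodendrocytes, at 27012 to 44338 and 33301 to 43692, of which 5 had a negative log2 fold change. HD replicate 2, the low HD mouse for mt-Co1, held the lowest neuron and oligodendrocyte sums and the highest microglia and astrocyte sums. Its astrocyte marker Gfap had 32820 normalized counts against 4080 to 12446 in the other HD mice. The part of any of these markers in the mitochondrial values was not tested.

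**Figure D3:**
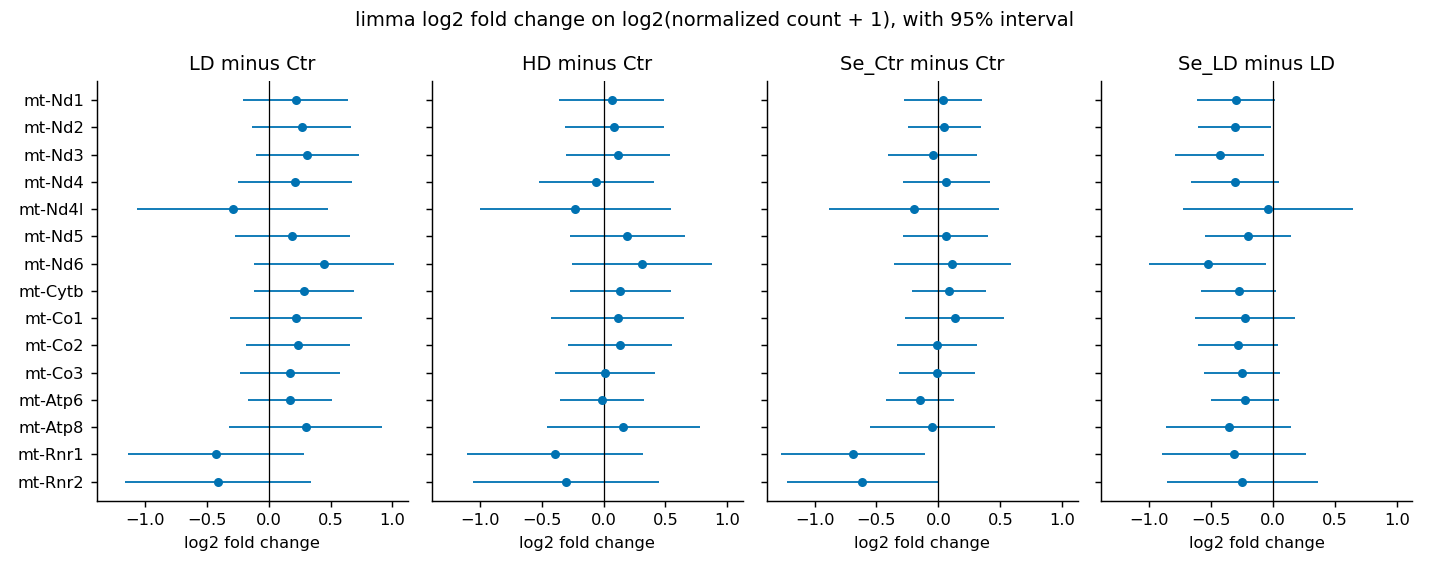
limma log2 fold changes on log2(normalized count + 1) with 95% intervals (x axis) for the 13 mRNAs and 2 rRNAs (y axis) in 4 comparisons. Most mRNA estimates lie right of 0 in LD minus Ctr and all lie left of 0 in Se_LD minus LD, with intervals that mostly span 0, and the rRNA estimates in the first 3 panels all rest on a contrast with the Ctr mice.

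The rRNA differences from Ctr rested on 1 mouse. mt-Rnr1 had 67102, 267403, 64456, 77445 and 54483 normalized counts in the Ctr mice, so replicate 2 lay far above the next highest mouse. Its log2 fold changes from Ctr were -0.42 in LD and -0.39 in HD mice, and without Ctr replicate 2 they were -0.02 and 0.01. For mt-Rnr2 they were -0.41 and -0.30, and 0.01 and 0.12 without it. In Ctr replicate 2 the rRNAs reached 95.9 reads per 100 reads on mitochondrial mRNAs, while the 12 heavy-strand mRNAs summed to 760292 normalized counts there, within the 723018 to 1029600 of the Ctr mice.

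The second question is what MeHg does on the selenium background. In both comparisons 0 of the 25 mitochondrial genes tested were called by limma, edgeR or DESeq2, against 1.46% of all genes for Se_LD minus Se_Ctr and 2.06% for Se_HD minus Se_Ctr by limma. By edgeR these shares of all genes were 1.61% and 2.05%, and by DESeq2 1.14% and 1.59%. The contrast alone passed for 0 members in Se_LD mice (3.31% of all genes). In Se_HD mice it passed for 1 (4.19% of all genes), the proline tRNA mt-Tp, with a log2 fold change of 0.21 (0.01 to 0.41; limma contrast p = 0.0364, adjusted p = 1.00; exact permutation p = 0.0159). mt-Tp had 182, 163, 168, 138 and 159 normalized counts in Se_Ctr and 188, 205, 184, 190.1 and 169.5 in Se_HD mice, so only 1 Se_HD mouse lay within the Se_Ctr range. In Se_LD minus Se_Ctr mt-Nd2, which was not called, had an exact permutation p of 0.0238 at a log2 fold change of -0.09.

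The mRNA shares on selenium feed lay close together, at 9.76% ± 0.511 in Se_Ctr, 9.15% ± 0.506 in Se_LD and 9.36% ± 0.373 in Se_HD mice (SD, n = 5 each). Of the 13 mRNAs 12 had a negative log2 fold change in Se_LD and 10 in Se_HD mice, with medians of -0.08 and -0.03. mt-Co1 had 253056, 219604, 202089, 212865 and 250254 normalized counts in Se_Ctr, 213903, 220086, 216941, 171356 and 212179 in Se_LD, and 215103, 200346, 207375, 198480 and 214365 in Se_HD mice. Every mouse with either mercury dose lay below Se_Ctr replicates 1 and 5, and the groups overlapped.

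None of the 8 choroid plexus markers was called by limma in these comparisons. Their log2 fold change was negative for 8 of 8 in Se_LD (median -0.97) and positive for 8 of 8 in Se_HD mice (median 0.75), with overlapping sums of 6212 to 21091 in Se_Ctr, 275 to 37600 in Se_LD and 9313 to 34550 in Se_HD mice. Oligodendrocyte markers were positive for 6 of 6 in Se_LD mice (median 0.23) and 5 of 6 in Se_HD mice (median 0.06), and hippocampal neuron markers negative for 8 and 9 of 10 (medians -0.10 and -0.09). Over all lists 1 microglia marker was called lower and 1 endothelial marker higher in Se_LD mice, and 1 astrocyte and 1 endothelial marker higher in Se_HD mice. Of all genes 1.46% and 2.06% were called, so these few marker calls lie near the background. Their part in the mitochondrial values was not tested.

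Between Se_Ctr and Ctr mice limma called 1 of the 27 mitochondrial genes tested, mt-Tm, which was lower with selenium, against 1.30% of all genes. DESeq2 also called mt-Tm alone (1.28% of all genes), and edgeR called mt-Tm and both rRNAs (1.51%). In Se_Ctr mice mt-Tm had 4, 2, 1, 1 and 2 reads, or 3.80, 1.73, 1.17, 0.896 and 1.65 normalized counts, all below the lowest Ctr mouse (3.84). The log2 change was -1.65 (-2.62 to -0.67; limma adjusted p = 1.00, over the alternatives 0.742 to 1.00). The exact permutation p of 0.00794 is the smallest that 5 against 5 mice allow. With pseudocounts of 0.1 and 10 the change was -2.11 and -0.59. The call held in all 20 settings that tested the gene, the one used here among them and each mouse left out in turn, and a filter on a mean of at least 10 normalized counts removed the gene. The value rests on 1 to 9 reads in each of these 10 libraries, and the positions open to a full-length read at this gene depend on whether strand was counted, as given above.

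Both rRNAs were also lower in Se_Ctr than in Ctr mice by the contrast alone, at a log2 change of -0.69 for mt-Rnr1 (exact permutation p = 0.0556) and -0.61 for mt-Rnr2 (exact permutation p = 0.143). Without Ctr replicate 2 these were -0.28 and -0.19 and did not pass. The alanine tRNA mt-Ta, whose mean is 1.49 normalized counts, was the remaining gene of the 4 that passed the contrast alone, as 4.00% of all genes did. The mRNAs were divided, with 7 positive and 6 negative log2 fold changes (median 0.03). In this comparison 5 of 5 erythrocyte markers were negative (median -0.85, 1 called), with sums of 159 to 303 in Se_Ctr and 233 to 636 in Ctr mice, and 7 of 8 choroid plexus markers positive (median 0.95, 0 called), with sums of 6212 to 21091 and 814 to 31136. Of the hippocampal neuron markers 9 of 10 were positive (median 0.07) and of the oligodendrocyte markers 6 of 6 negative (median -0.08), with 0 called, and the part of any of these in the mitochondrial values was not tested.

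**Figure D4:**
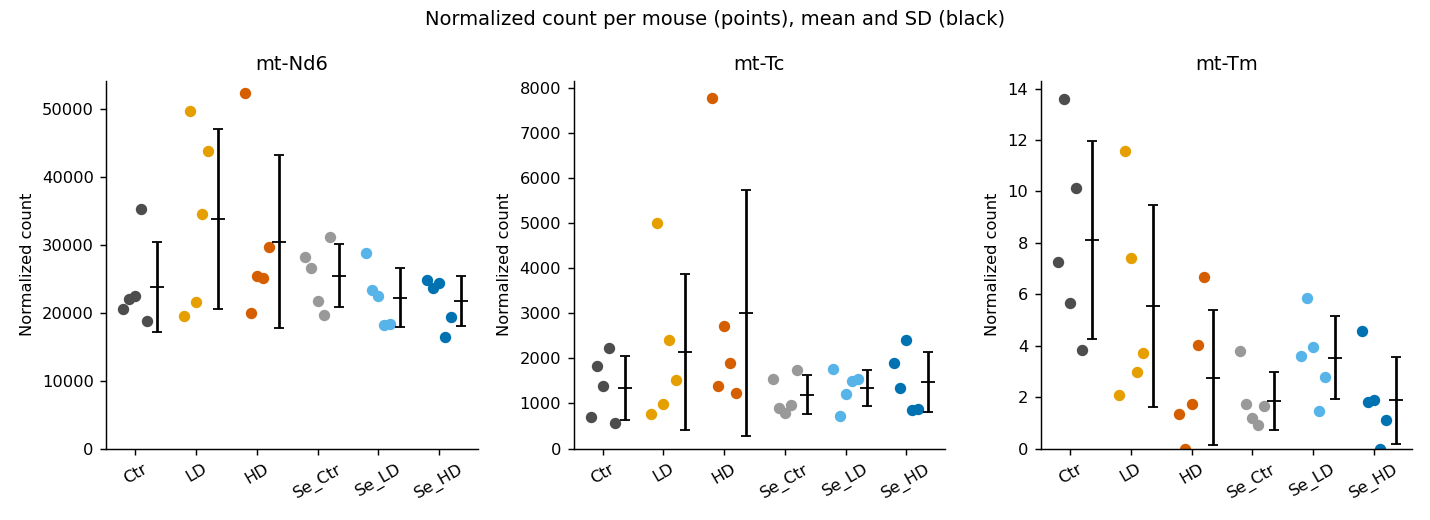
Normalized counts (y axis, from 0) of mt-Nd6, mt-Tc and mt-Tm by group (x axis), with a point per mouse and the mean and SD of 5 mice in black. HD replicate 1 is highest for mt-Nd6 and mt-Tc, and for mt-Tm all 5 Se_Ctr mice lie below the Ctr mice, at a few reads each.

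Between Se_LD and LD mice the mitochondrial mRNAs differed in 1 direction without a limma call. The mRNA share was 9.15% in Se_LD against 10.8% in LD mice, a difference of -1.65 percentage points with a pooled SD of 1.23, or -1.01 without LD replicate 5. All 13 mRNAs had a negative log2 fold change with a median of -0.29, against a median of -0.00076 over all genes. LD minus Ctr and the interaction with the low dose hold the same LD mice as this comparison, so their signs are not separate evidence. The mRNAs are also cut from shared precursors and are not independent of each other. None of the 27 genes was called by limma, against 0.730% of all genes. The contrast alone passed for 5, namely mt-Nd2, mt-Nd3, mt-Nd6, mt-Ty and mt-Te, against 2.86% of all genes. edgeR called 2 (mt-Ty and mt-Nd6, against 0.739%) and DESeq2 3 (mt-Nd2, mt-Ty and mt-Cytb, against 0.575%). In the same comparison 7 of the 8 choroid plexus markers (median -0.58) and 7 of the 10 markers of hippocampal neurons (median -0.12) had a negative log2 fold change, with 0 called. The choroid plexus markers summed to 275 to 37600 normalized counts in Se_LD and 554 to 31027 in LD mice, the neuron markers to 89839 to 112109 and 96866 to 115647, and their part in the mitochondrial values was not tested.

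mt-Nd3, a small complex I subunit, had 15625, 24233, 15524, 21164 and 28730 normalized counts in LD and 16131, 13874, 16534, 13560 and 15887 in Se_LD mice. LD replicates 2, 4 and 5 lay above all Se_LD mice and replicates 1 and 3 within them. The log2 fold change was -0.43 (-0.79 to -0.07; limma adjusted p = 1.00; exact permutation p = 0.0794). mt-Nd6 went with it, at 28766, 23366, 22472, 18210.2 and 18365 in Se_LD mice, a log2 difference of -0.53 that the exact permutation test did not separate (p = 0.119). For mt-Nd2 it was -0.31 (exact permutation p = 0.0397).

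mt-Ty reached 113 normalized counts in LD replicate 5 against 7.32 to 28.3 in the other LD mice and 4.43 to 21.1 in Se_LD mice. Its log2 fold change was -1.19 (exact permutation p = 0.135), and without LD replicate 5 it was -0.62. LD replicate 5 was the highest of all 30 libraries in 9 of the 13 mRNAs.

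Between Se_HD and HD mice limma called 0 of 27 genes against 3.59% of all genes, and 0 passed the contrast alone (8.38%). DESeq2 called 0 (4.41%) and edgeR 2 (4.66%), mt-Tc and mt-Nd6, the genes highest in HD replicate 1. The median log2 fold change of the mRNAs was -0.10, with 11 of 13 negative. Glial markers differed without overlap in their sums here: limma called 9 of 10 microglia and 4 of 6 astrocyte markers lower in Se_HD mice, with sums of 2588 to 3046 against 3134 to 7572 and of 45794 to 47792 against 53301 to 87617 in HD mice. The interneuron markers, with 1 of 5 called higher, summed to 4985 to 6232 against 3851 to 4819, also without overlap. Their part in the mitochondrial values was not tested.

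The factorial question, whether selenium alters the response to mercury, was tested as an interaction. For the low dose limma called 0 of 27 genes against 1.09% of all genes, and 0 passed the contrast alone (3.75%). edgeR called 1 (mt-Nd6, against 0.968%) and DESeq2 2 (mt-Nd2 and mt-Cytb, against 0.879%). The interaction was negative for 12 of 13 mRNAs (median -0.33), and for mt-Nd6 it was -0.64 (-1.31 to 0.02; limma adjusted p = 0.998). For the high dose limma called 0 of 27 against 2.38% of all genes. Only mt-Ty passed the contrast alone (4.77%), at 1.63 (limma adjusted p = 0.997), and edgeR (2.80%) and DESeq2 (2.57%) each called this gene. In the interaction with the low dose 8 of 8 choroid plexus markers were negative (median -1.49, 0 called) and 5 of 5 erythrocyte markers positive (median 0.77, 1 called). In that with the high dose limma called 9 of 10 microglia and 2 of 6 astrocyte markers, all negative, and 1 of 5 interneuron markers, positive, and the part of these lists was not tested.

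The spread between mice of the mRNA levels is given as a description with no test. The SD of the log2 level was larger in Ctr than in Se_Ctr mice for 12 of 13 mRNAs, with medians of 0.259 and 0.144. It was larger in LD than in Se_LD mice for 13 of 13 (0.298 and 0.141) and in HD than in Se_HD mice for 11 of 13 (0.211 and 0.102). In percent these were 92.3%, 100% and 84.6% of the mRNAs. Among the 1803 genes that averaged 1000 normalized counts or more, 65.1%, 69.6% and 88.0% had the larger SD without selenium in the same pairs, and among all genes tested 66.8%, 62.0% and 67.3%. For HD and Se_HD mice the share of the mRNAs thus lay near that of the abundant genes.

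The mRNAs varied together from mouse to mouse. For each mRNA the 6 highest of the 30 libraries were noted, and LD replicate 5 was among them for 12 of the 13 mRNAs, LD replicate 2 and Ctr replicate 4 for 11 each, and HD replicate 1 for 10. Se_LD replicate 4 was among the 6 lowest for 10 and HD replicate 2 for 9. High libraries thus came from all 3 groups without selenium.

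Within groups, after each gene was centred on its group mean, mt-Co1 and mt-Cytb correlated over the 30 libraries with Pearson's r of 0.83 and Spearman's rho of 0.81 (permutation p = 2e-05 and 1e-05; adjusted 6.4e-05 and 5.33e-05 over 8 relations and 16 tests). The lower p is the smallest that 100000 permutations within groups can give. Without the 2 libraries farthest from the median of mt-Co1, r was 0.76. mt-Rnr1 and mt-Rnr2 had r of 0.99 and rho of 0.98 (adjusted permutation p = 5.33e-05 for both; 0.96 without the farthest 2). These pairs were chosen after values had been seen, and all share the normalization of their library.

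Across the strands, mt-Co1 and the light-strand mt-Nd6 had r of 0.81 and rho of 0.80 (adjusted permutation p = 0.000107 and 6.4e-05; 0.78 without the farthest 2). mt-Nd6 and mt-Tc, which are read from the same strand, had r of 0.77 and rho of 0.70 (adjusted p by permutation 0.000114 and 0.0004; 0.64). mt-Co1 and mt-Tc had r of 0.46 and rho of 0.41, which did not pass after adjustment (permutation p = 0.0645 for both; 0.50). As a description, the 10 heavy-strand mRNAs other than mt-Atp8 and mt-Nd4l had r of 0.30 to 0.65 with mt-Tc. mt-Atp8 had 0.74 and mt-Nd4l 0.08. Of the other minus-strand tRNAs that averaged at least 10 normalized counts, mt-Tp had 0.66, mt-Tn -0.06 and mt-Ty 0.04. High values with mt-Tc were thus not confined to 1 strand. Centring also on the library set, the 6 consecutively numbered libraries that held a mouse of each group, left r at 0.86, 0.85 and 0.82 for mt-Co1 with mt-Cytb, mt-Co1 with mt-Nd6 and mt-Nd6 with mt-Tc.

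Over all 30 libraries the rRNAs did not follow the mRNAs as closely, and much of this rested on Ctr replicate 2. mt-Co1 and mt-Rnr2 had r of 0.21 and rho of 0.38 (adjusted permutation p = 0.344 and 0.0692; 0.093 without the farthest 2), and r of 0.59 without Ctr replicate 2. mt-Rnr2 did correlate with the share of reads on misc_RNA, with r of 0.82 and rho of 0.69 (adjusted permutation p = 0.000672 for both), and r was 0.64 without Ctr replicate 2. mt-Co1 and the number of reads on genes had r of -0.22 and rho of -0.11 (permutation p = 0.295 and 0.594).

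As a description with no test, the 45 pairs among the 10 heavy-strand mRNAs other than mt-Atp8 and mt-Nd4l had a median r of 0.80 (0.55 to 0.92). With the 2 rRNAs these 10 mRNAs had a median r of 0.45 (0.19 to 0.54), or 0.71 without Ctr replicate 2, where the 45 pairs had 0.82. With mt-Nd6 the median over all 30 libraries was 0.75 and with mt-Tc 0.51. mt-Nd4l stood apart from the other heavy-strand mRNAs at a median r of 0.19, on counts of 3.40 to 13.2 per library.

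**Figure D5:**
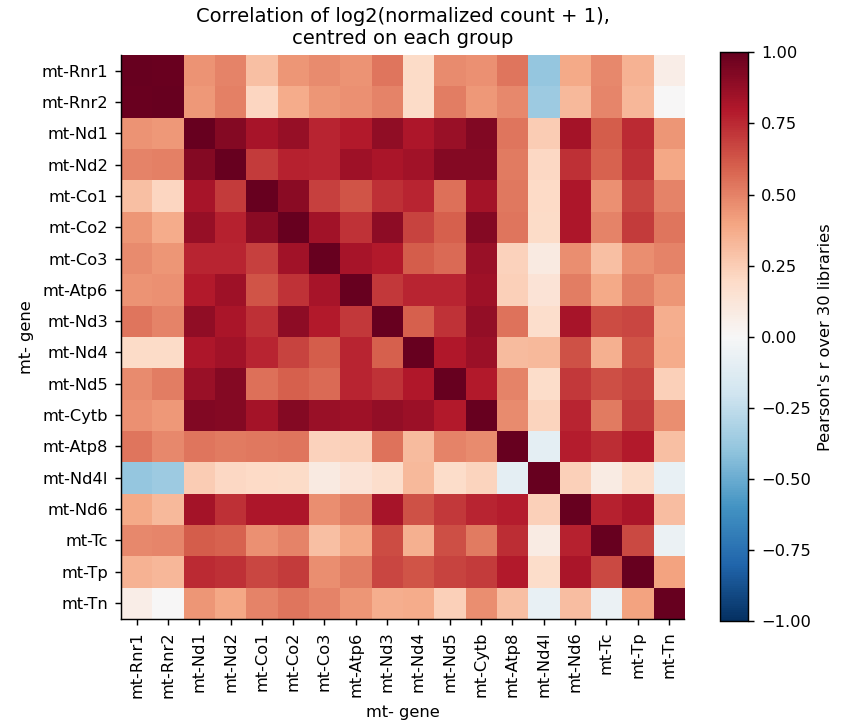
Pearson's r over 30 libraries (colour) between the levels of 18 mitochondrial genes on the log2(normalized count + 1) scale, after centring on each group mean, with the genes on both axes. The 10 heavy-strand mRNAs other than mt-Atp8 and mt-Nd4l form a block with a median r of 0.80, and all 12 have a median of 0.73. The rRNAs correlate at 0.99 with each other. mt-Nd4l has a median r of 0.19 with the other heavy-strand mRNAs, and -0.39 and -0.36 with mt-Rnr1 and mt-Rnr2.

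The nuclear genes that make and use these transcripts were examined as lists. Of 9 genes for mitochondrial transcription 8 had a row, of 10 for maintenance of the mitochondrial DNA 9, and all 18 for RNA processing, polyadenylation and decay. The most abundant were Tfam with 251 and Polrmt with 141 normalized counts for transcription, Rrm2b with 522 and Polg, the replicative polymerase, with 317 for maintenance, and Grsf1, of the RNA granules, with 685 and Lrpprc, which stabilises mitochondrial mRNAs, with 636 for processing. limma called 0 of the 8 transcription and 0 of the 9 maintenance genes in every comparison, where it called from 0.730% to 5.09% of all genes, so that a count of 0 is near the background. For Polrmt the log2 fold change was 0.22 in LD mice and for Tfam -0.03, both with a limma adjusted p of 0.999.

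Of the 18 processing genes limma called 1 in Se_LD minus Se_Ctr and 1 in Se_HD minus HD, against 1.46% and 3.59% of all genes, and 0 in the other comparisons. A single gene of a list this short lies near the background. Fastkd5, which acts on precursors that lack flanking tRNAs, was higher in Se_LD than in Se_Ctr mice with a log2 fold change of 0.58 (limma adjusted p = 1.00), at a mean of 29.2 normalized counts. Lrpprc was higher in Se_HD than in HD mice by 0.19 (limma adjusted p = 0.541).

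Nuclear subunits partner the mitochondrial ones in each complex, and 37 genes of complex I, 9 of complex III, 11 of complex IV and 15 of complex V were measured. Their most abundant members were Ndufa4 (listed here with complex I and since assigned to complex IV) and Ndufs1, Uqcrc2 and Uqcrh, Cox4i1 and Cox6c, and Atp5a1 and Atp5b. Of these genes limma called 1, in LD minus Ctr, where 1.46% of all genes were called, and 0 in the other comparisons. This was Ndufa12, an accessory subunit of complex I, which was higher in LD than in Ctr mice with a log2 fold change of 0.40 (limma adjusted p = 0.999). In this comparison 34 of the 37 complex I genes had a positive log2 fold change (median 0.11), and in Se_LD minus LD 34 of 37 had a negative one (median -0.08). Both comparisons hold the same LD mice, so their opposite signs are not separate evidence. The 37 genes summed to 17497 to 25807 normalized counts in LD mice (median 20159) and 17234 to 20521 in Ctr mice (median 19642), which overlapped. The LD sums of complexes III, IV and V also overlapped with Ctr, with maxima of 9642, 15044 and 26067 against LD medians of 7566, 10541 and 20410. The signs were not examined with single mice left out. In HD minus Ctr 25 and in Se_Ctr minus Ctr 29 of the 37 were positive, with medians of 0.06 and 0.06. Over all genes tested, 10243 were positive and 9786 negative in LD minus Ctr, and 10622 and 10743 in Se_LD minus LD.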

How the data were processed

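Gene expression was measured by RNA sequencing of hippocampal RNA (TruSeq Stranded mRNA kit per the labels, TruSeq Stranded RNA kit in the study's methods, single-end reads of 75 bases). The authors trimmed the reads with TrimGalore 0.4.2, mapped them to build NCBIM37 with Hisat2, counted them per gene with FeatureCounts, removed rows with few reads and deposited the counts divided by DESeq2 size factors. The deposited values are therefore a normalized signal per gene and not raw counts. Strand, multi-mapping and overlap settings of the counting are not given in the sources used here. Whole reads were recovered from the steps of the values (100% of values whole within 0.01 reads), gave the depth of each library, and were used for edgeR and DESeq2 as alternatives.

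Ensembl IDs were joined to the NCBIM37 gene annotation (21326 of 21412 rows had a symbol). Only the normalized counts were used. limma 3.58.1 with trend (R 4.3.3) was run on log2(normalized count + 1) for genes with a sum of at least 10 in the fit, which understates the change of low genes. Contrasts with Ctr among the groups without selenium, and with Se_Ctr among those with selenium, used the 15 libraries of that feed. Contrasts across feeds and interactions used all 30. A gene was called at unadjusted p under 0.05 for both the F test and the contrast, as in the study's order of tests, and Benjamini-Hochberg adjusted p-values over all genes tested are given beside. Here edgeR was 4.0.16 and DESeq2 was 1.42.0. Single genes were also tested by exact permutation over mice. Shares of counted reads are given with no test. The methods were tested on simulated data.

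The mRNAs and rRNAs are named with values, and tRNAs where their mean was at least 10 normalized counts or a contrast called them; of the nuclear lists, the called and the 2 most abundant genes are named. mt-Te, mt-Ta, other tRNAs under that mean and the nuclear copies were named after their values were seen. The members, lists and tests were chosen with earlier results of these data known. Alternatives changed the pseudocount, the filter, the size factors, the trend, the tool, the libraries of the fit and the library set, and left out each mouse. Leaving Ctr replicate 2 out of the rRNA variation and ratios, and each mouse out of the shares by class, was chosen after seeing the data.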

Additional observations from a re-analysis of the deposited data

Results flagged for a closer look

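A mouse was set aside for a closer look where its distance to the nearest mouse of its group took up more than 0.71 of the group's whole range (Dixon's test for 5 samples). Over 144 groups of 5, for 20 named genes and the shares, 21 passed, and chance alone gives about 1 in 20. The 144 are not independent, since genes vary together and the shares are summed from them, so 1 mouse can pass many times.

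Ctr replicate 4 was the high mouse of its group in 7 of the mRNAs, with 107114 normalized counts for mt-Nd1, 100619 for mt-Co2, 19437 for mt-Atp6, 122239 for mt-Co3, 125659 for mt-Nd4, 35360.1 for mt-Nd6 and 107198 for mt-Cytb. Its mRNA share was 11.7% of counted reads. Ctr replicate 2 was the high mouse for the rRNAs, with 267403 normalized counts for mt-Rnr1, 482696 for mt-Rnr2 and an rRNA share of 7.64%.

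HD replicate 1 was high for mt-Tc (7779.6 normalized counts) and for the tRNA share (0.0853%). LD replicate 5 was high for mt-Ty (113) and LD replicate 2 for mt-Atp8 (532). Se_HD replicate 4 was high for mt-Ty (53.5) and low for mt-Nd5 (61592). Se_Ctr replicate 4 was high for mt-Nd5 (74692) and low for the rRNA share (1.26%), Se_Ctr replicate 1 was high for mt-Tm (3.80), and Se_LD replicate 4 was low for mt-Co1 (171356). No cause was tested for any of these values.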

How the results depend on the processing

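The number of mitochondrial genes called changed with the tool and the filter. For HD minus Ctr it was 0 with a filter on a mean of at least 10, with edgeR and with DESeq2, and 2 (mt-Tm and mt-Ty) with the library set as covariate. The log2 fold change of mt-Ty was -1.21 there, at 4.90 to 19.2 normalized counts in HD and 11.3 to 84.5 in Ctr mice, which overlapped. For Se_Ctr minus Ctr the number called was 0 with that filter, 3 with edgeR and 4 with the contrast alone. For Se_LD minus LD it was 2 with edgeR, 3 with DESeq2 and 5 with the contrast alone, for Se_HD minus HD 2 with edgeR, and for Se_HD minus Se_Ctr 1 with the contrast alone. The interaction with LD gave 1 with edgeR and 2 with DESeq2, and that with HD gave 1 each with a pseudocount of 10 (mt-Tm), edgeR, DESeq2 and the contrast alone. The filter removes mt-Tm from the genes tested, and other causes were not tested. With 1 mouse left out the count ran from 0 to 1 for HD minus Ctr, from 1 to 1 for Se_Ctr minus Ctr, from 0 to 1 for Se_HD minus HD, from 0 to 2 for Se_LD minus LD, from 0 to 1 for each interaction and from 0 to 0 for the other 3. Calls appeared without HD replicate 3 (mt-Ta, Se_HD minus HD), without LD replicate 1 (mt-Ty and mt-Nd6, Se_LD minus LD; mt-Nd6, interaction with LD), and for mt-Tm in the interaction with LD without Ctr replicate 5, LD replicate 2, Se_Ctr replicate 1 or Se_LD replicate 4 and in that with HD without Ctr replicate 3 or 5, HD replicate 4 or 5, Se_Ctr replicate 1 or Se_HD replicate 4. The difference in total mitochondrial share ran from -0.299 to 1.23 percentage points for LD minus Ctr, -0.732 to 0.530 for HD minus Ctr, -0.936 to -0.337 for Se_LD minus Se_Ctr, -0.480 to 0.0790 for Se_HD minus Se_Ctr, -1.34 to -0.0766 for Se_Ctr minus Ctr, -2.44 to -1.21 for Se_LD minus LD and -1.22 to -0.376 for Se_HD minus HD. No called value reversed, and 142 single-gene values changed sign without being called. The labels give no replicate number shared between groups and do not say that a library set pairs mice, so the block that could be fitted was the library set, which changed no other count of calls. Depth limits the tRNAs other than mt-Tc, mt-Tp and mt-Tn, since those others hold few reads in most libraries, and the unadjusted threshold lets chance calls through.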

Other observations

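Genes without a row and genes in nuclear copies belong in no comparison of the groups. mt-Tf, the phenylalanine tRNA at the first base of the annotated chromosome, has 69 positions for a 75-base read that touch no other mitochondrial gene, yet it is 1 of the 10 mitochondrial genes without a row. A further nuclear copy, on chr2:22442808-22446054 at 97.4% identity, holds 3 annotated pseudogenes with rows. Gm13340, which lies opposite mt-Co1, averaged 151 normalized counts (69.2 to 368 over the libraries), Gm13341, opposite mt-Co2, 109 (45.9 to 424), and Gm13339, opposite mt-Nd2, 5.12 (1.21 to 10.8). These were named after their values were seen. The share of counted reads on mitochondrial tRNAs was 0.0184% ± 0.00755 in Ctr, 0.0274% ± 0.0182 in LD and 0.0365% ± 0.0280 in HD mice, and 0.0166% ± 0.00483, 0.0187% ± 0.00440 and 0.0203% ± 0.00710 in Se_Ctr, Se_LD and Se_HD mice (SD, n = 5 each). Without HD replicate 1 the HD mean was 0.0243% and its difference from Ctr 0.00587 in place of 0.0181 percentage points, and without LD replicate 2 the LD mean was 0.0200%. mt-Nd6 made up 2.86% ± 0.288 of the reads on mitochondrial mRNAs in Ctr, 3.40% ± 0.852 in LD and 3.40% ± 0.928 in HD mice, with the highest value, 5.04%, in HD replicate 1, and 2.99% ± 0.417, 2.81% ± 0.508 and 2.69% ± 0.463 in Se_Ctr, Se_LD and Se_HD mice. Without HD replicate 1 the HD mean was 2.99% and its difference from Ctr 0.127 in place of 0.537 percentage points, and without LD replicate 2 the LD mean was 3.10% and its difference 0.235 in place of 0.533.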
